A study of Mus musculus with 4 samples.

Results

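Atf4 and 9 genes of the amino acid stress response were followed in mouse haematopoietic stem and progenitor cells recovered early after transplantation. The 10 genes are Atf4, Atf5, Ddit3, Ddit4, Asns, Trib3, Chac1, Slc7a11, Slc3a2 and Slc7a5, and they were chosen by name. They had 12 probes among the 55681 non-control probes of the array, and 9 of the 10 were among the 28285 genes well above background on at least 1 array. Donors were male C57BL/6J mice aged 10 weeks, either wild type (WT) or with a conditional knockout of p38 (cKO; the series title names p38 alpha). From their femurs and tibias, CD34- Flt3- cells (LT-HSC, long-term stem cells) or CD34+ Flt3+ cells (MPP, multipotent progenitors) of the LSK fraction (marrow cells without lineage markers that carry Sca-1 and Kit) were sorted, stained with the division dye CFSE and injected into Ly5.1 congenic hosts that had received 9.5 Gy. After 16 h the CFSE-positive cells were sorted from the hosts' marrow and their RNA was measured on a 1-colour microarray. All 4 groups therefore consisted of transplanted cells in irradiated hosts, and an untransplanted control was not analysed here. Each group (WT LT-HSC, cKO LT-HSC, WT MPP and cKO MPP) had 1 array, so a difference between groups rests on single arrays and has no replicates behind it. The Cre driver, the deleted exons and any pooling of mice are not given in the sources used here, and the knockout was taken as labelled.

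The genes belong to the integrated stress response. Kinases that sense amino acid shortage, haem shortage, unfolded protein in the endoplasmic reticulum (ER) or double-stranded RNA phosphorylate the initiation factor eIF2 alpha; general translation then falls while the mRNA of the transcription factor ATF4 is translated more, so ATF4 protein is known to depend largely on translation rather than on the Atf4 mRNA level that an array reads. ATF4 binds CEBP-ATF response elements (CARE) and switches on genes for amino acid synthesis and import and for the regulators that end or redirect the response. In haematopoietic stem cells this pathway is known for its part in survival under stress and in the supply of amino acids.

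RefSeq promoter windows (GRCm38.p6, 250 bases before to 50 after the annotated start) were found by symbol for 9 of the 10 genes, and not for Slc7a5. The CARE core TGATGNAA, searched on both strands, had 5 matches in the windows of 4 genes (Asns, Trib3, Chac1 and Slc7a11), whereas 3.97% of all 32851 windows held a match. The antioxidant element core TGACNNNGC, which 12.4% of all windows held, had 1 match, at -172 to -164 of Asns, and the ER stress element had none in these windows. A match here is a description of the letters and not evidence of binding. The 4 promoters with a CARE core are shown because their genes gave different patterns on the arrays. The bases run 5′ to 3′ on the gene's strand, with the CARE core in capitals (reading TGATGNAA on the strand shown or on the opposite one). For Asns (chr6:7693210-7693459, minus strand), Chac1 (chr2:119350992-119351241, plus strand) and Slc7a11 (chr3:50443614-50443863, minus strand) they are the 250 bases before the start. For Trib3 (chr2:152344028-152344057, minus strand), whose match lies after the annotated start, 30 bases around it are given.
Asns: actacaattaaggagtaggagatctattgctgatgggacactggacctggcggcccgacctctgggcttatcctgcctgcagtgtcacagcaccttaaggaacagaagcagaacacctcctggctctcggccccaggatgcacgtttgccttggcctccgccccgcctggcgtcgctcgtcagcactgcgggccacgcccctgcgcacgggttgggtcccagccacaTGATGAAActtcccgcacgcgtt
Trib3: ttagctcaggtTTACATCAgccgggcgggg
Chac1: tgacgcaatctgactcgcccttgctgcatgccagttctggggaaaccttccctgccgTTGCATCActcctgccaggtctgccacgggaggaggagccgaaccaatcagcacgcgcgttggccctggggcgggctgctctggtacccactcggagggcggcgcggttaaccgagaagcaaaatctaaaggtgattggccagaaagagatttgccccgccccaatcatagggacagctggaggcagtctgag
Slc7a11: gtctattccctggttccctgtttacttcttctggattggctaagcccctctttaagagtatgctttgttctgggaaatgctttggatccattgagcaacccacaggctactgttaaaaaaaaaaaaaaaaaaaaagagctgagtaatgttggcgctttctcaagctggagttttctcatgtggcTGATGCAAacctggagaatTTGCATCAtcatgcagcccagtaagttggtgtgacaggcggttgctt
The core lay at -23 to -16 in Asns, at 15 to 22 after the start in Trib3, at -193 to -186 in Chac1, and at -66 to -59 and -47 to -40 in Slc7a11, the last pair on opposite strands.

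Per array, 62.5% to 70.5% of the spots were well above background (a flag of the scanner software), and no spot was saturated. Values in the following are the processed signal of each array as deposited, not scaled between arrays. Differences are on the log2 scale after each array's 75th percentile was subtracted, so that a difference of 1 is 2-fold. The error given with ± was computed from the signal errors that the scanner software reports, and covers neither cells, sorting nor RNA amplification. All 13 markers of stem and progenitor cells were well above background on both LT-HSC arrays and 12 on both MPP arrays, where Slamf1 was not. Cd34, which the sort used, was lower on the LT-HSC than on the MPP array in WT (-2.99) and in cKO (-1.02). Flt3, also used by the sort, was lower at its brightest probe (-1.81 and -1.16). At its other probes it was higher (0.22 and 0.88 in WT, 0.70 and 0.63 in cKO). Cd34 was also higher on the cKO than on the WT LT-HSC array (1.71, other probe 1.15). Procr and Hlf stood at -1.18 and -0.74 (LT-HSC minus MPP) in WT and at 0.26 and 0.11 in cKO. Mapk14, which encodes p38 alpha, had signals of 1447 (WT) and 912.2 (cKO) in LT-HSC and 951.2 and 1024 in MPP at its brighter probe, which may lie outside the deleted part and so does not check the genotype labels. Markers of other cell types also differed between arrays. The summed signal of 9 B cell markers, relative to the array's 75th percentile, was 63.3 (WT) and 25.6 (cKO) in LT-HSC and 2.43 (WT) and 2.07 (cKO) in MPP. That of 9 stromal and endothelial markers was 39.8 on the WT LT-HSC array and 10.5 to 10.9 on the others. That of 12 macrophage markers was 64.5 on the cKO MPP array, with all 12 well above background, and 27.8 to 35.8 on the others, where 10 to 11 were. In such bulk samples, fewer cells of a type and less RNA per cell cannot be told apart.

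**Figure D1:**
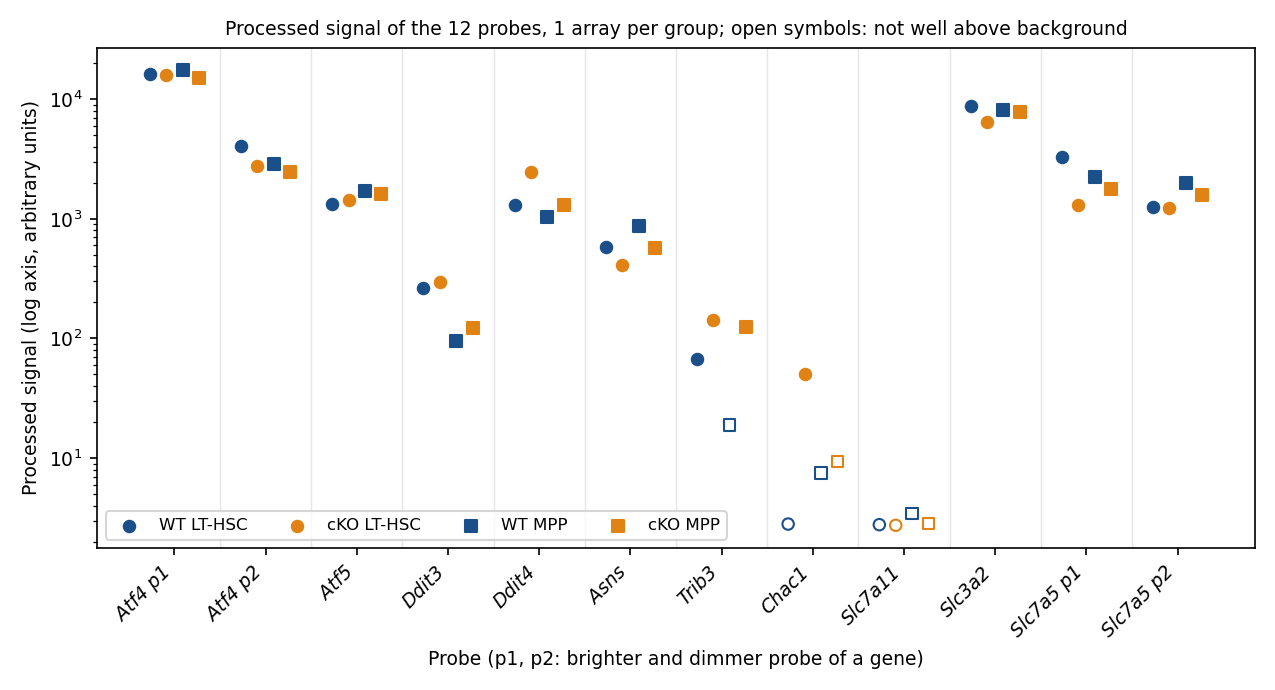
Processed signal (log axis, not scaled between arrays) of the 12 probes on the 4 arrays; each point is 1 array, blue for WT and orange for cKO, circles for LT-HSC and squares for MPP, and open symbols mark spots not well above background. Levels may not be compared between probes. Between arrays they compare only roughly at 1 probe, as the arrays' 75th percentiles ran from 174.9 (cKO MPP) to 213.7 (WT LT-HSC). Atf4 lay within 14942 to 17399 at its brighter probe, Trib3 was lowest on the WT MPP array (18.9), and Chac1 was well above background on the cKO LT-HSC array alone (50.3).

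Atf4, the factor at the centre of the response, differed little between the arrays. At its brighter probe (mm9 chromosome 15, 80087902 to 80087961) the signal was 16363 (WT) and 16105 (cKO) in LT-HSC and 17399 (WT) and 14942 (cKO) in MPP. All 4 values lay close together, and the cKO minus WT difference was 0.06 ± 0.20 in LT-HSC and -0.19 ± 0.20 in MPP. Its second probe (80086639 to 80086698, 1263 bases away) read 4031, 2763.5, 2870.5 and 2479 in the same order. There the WT LT-HSC array stood highest, and the differences were -0.46 ± 0.20 and -0.18 ± 0.20. Between the populations Atf4 differed by -0.35 in WT and -0.10 in cKO at the brighter probe (LT-HSC minus MPP) and by 0.23 and -0.05 at the other. The signs at the brighter probe were not stable: under the 6 background corrections and scalings tried, the WT difference ran from -0.35 to 0.19, the cKO difference from -0.19 to 0.19, and the genotype difference in LT-HSC from -0.14 to 0.09.

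Atf5, a related bZIP factor whose translation is likewise known to be controlled through eIF2, was lower on the LT-HSC than on the MPP arrays. Its probe (mm9 chromosome 7, 52067627 to 52067686) gave 1320.4 (WT) and 1440.2 (cKO) in LT-HSC and 1724 (WT) and 1611 (cKO) in MPP. Both LT-HSC values lay below both MPP values, with LT-HSC minus MPP at -0.65 ± 0.20 in WT and -0.37 ± 0.20 in cKO. The genotype differences were 0.21 ± 0.20 in LT-HSC and -0.07 ± 0.20 in MPP, about the size of the scanner error or below it.

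Ddit3 encodes CHOP, a bZIP factor induced downstream of ATF4 in prolonged stress. Its probe, whose mm9 position spans 304 bases of chromosome 10 (126732518 to 126732821), read 261.8 (WT) and 297.1 (cKO) in LT-HSC and 95.2 (WT) and 122.7 (cKO) in MPP. Both LT-HSC arrays exceeded both MPP arrays, by 1.20 ± 0.21 in WT and 1.07 ± 0.21 in cKO, and the cKO array was the higher one in each population, by 0.26 ± 0.21 and 0.40 ± 0.21 respectively. The population difference ran from 0.85 to 1.35 in WT and from 0.82 to 1.18 in cKO over the 6 background corrections and scalings, so its direction held while the 2-fold mark was missed in part of them.

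Ddit4, which encodes REDD1, an inhibitor of the growth kinase complex mTORC1, was highest on the cKO LT-HSC array. The signal at mm9 chromosome 10, 59412486 to 59412545, was 1299.7 (WT) and 2487 (cKO) in LT-HSC and 1033 (WT) and 1298 (cKO) in MPP. The other 3 arrays lay near each other. The cKO minus WT difference was 1.02 ± 0.20 in LT-HSC and 0.36 ± 0.20 in MPP; their difference of 0.66 ± 0.29 could not be tested with 1 array per group. LT-HSC minus MPP was 0.07 in WT and 0.73 in cKO. The LT-HSC genotype difference lay on either side of 2-fold, from 0.82 to 1.05 over the 6 background corrections and scalings.

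Trib3, a pseudokinase that is itself an ATF4 target and acts back on ATF4 and CHOP, read higher in cKO in LT-HSC as well as in MPP. Its probe (mm9 chromosome 2, 152163161 to 152163220) read 66.8 (WT) and 142.0 (cKO) in LT-HSC and 18.9 (WT) and 123.9 (cKO) in MPP. The WT MPP value was not well above background, and the cKO values were nearly equal (LT-HSC minus MPP -0.01 ± 0.21). In LT-HSC the genotype difference was 1.17 ± 0.22, which became 0.97 with median scaling, and 0.62 and 0.71 with the normexp background correction under quantile normalization and the 75th percentile. In MPP the cKO array was 6.69-fold higher than the WT array (6.65-fold to 7.07-fold under the other scalings without normexp). In WT the LT-HSC array was 2.95-fold higher than the MPP array. Each of these values is taken against the WT MPP spot's own dim signal, so it is not a strict lower limit. No values with normexp are given for them. Macrophage markers stood higher on the same cKO MPP array: 9 of 11 measured on both MPP arrays were higher by 2-fold or more, with a median of 1.44, and Hmox1 by 1.48. Their part in the Trib3 difference was not tested. Of 9 macrophage markers measured in LT-HSC, 1 was higher and 1 lower by 2-fold in cKO (median 0.40). These values come from single arrays of another population. They do not test what macrophage RNA adds to the Trib3 difference in MPP, and its part in LT-HSC was not tested either.

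Chac1, an enzyme that degrades glutathione and a sensitive ATF4 target, was well above background on 1 array. The signal at mm9 chromosome 2, 119179990 to 119180049, was 50.3 on the cKO LT-HSC array, against 2.81 in WT LT-HSC, 7.51 in WT MPP and 9.32 in cKO MPP, all not well above background. The cKO LT-HSC array was at least 4.27-fold higher than the WT LT-HSC array (the bound is taken against 12.5, the lowest signal well above background there) and at least 3.41-fold higher than the cKO MPP array. The same bounds were at least 3.61-fold and at least 3.18-fold with quantile normalization. The value rests on a single spot. As Chac1 was well above background on the cKO LT-HSC array alone, the direction of its bounds is set by that flag. Of the 8 members measured on both LT-HSC arrays, 5 read higher on the cKO array, Trib3 and Ddit4 among them, and 3 lower. Over all 24111 genes measured there, 14143 read higher and 9968 lower.

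Asns, asparagine synthetase, was lower on the cKO than on the WT array in each population; its promoter, like that of Trib3, holds a CARE core. Its probe (mm9 chromosome 6, 7625171 to 7625228) read 585.4 (WT) and 413.6 (cKO) in LT-HSC and 864.2 (WT) and 575.05 (cKO) in MPP. The WT MPP value was highest and the cKO LT-HSC value lowest. The cKO minus WT difference was -0.42 ± 0.20 in LT-HSC and -0.56 ± 0.20 in MPP, and LT-HSC minus MPP was -0.82 ± 0.20 in WT and -0.68 ± 0.20 in cKO. None of these 4 differences reached 2-fold, and each kept its sign under the 6 background corrections and scalings. Among 21519 other genes well above background on all 4 arrays, the profiles nearest to that of Asns were those of Thap12, Rybp and Slc4a1ap, at Euclidean distances of 0.05, 0.06 and 0.07 between log2 values centred over the 4 arrays. For Atf4, whose profile was nearly flat, the 3 nearest were a probe without a gene name and a pair of intergenic regions, at distances of 0.03.

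The amino acid transporters gave no common pattern. Slc3a2, the heavy chain (CD98) that carries LAT1 and xCT to the membrane, read 8817 (WT) and 6476 (cKO) in LT-HSC and 8116.5 (WT) and 7845 (cKO) in MPP (mm9 chromosome 19, 8782189 to 8782248). The cKO LT-HSC value was lowest and the rest lay close together, with genotype differences of -0.36 ± 0.20 in LT-HSC and -0.02 ± 0.20 in MPP, the latter turning to 0.10 with quantile normalization. Slc7a11, the cystine and glutamate exchanger xCT, was not well above background on any array (2.77, 2.74, 3.44 and 2.84 at mm9 chromosome 3, 50169700 to 50169759, in the order WT LT-HSC, cKO LT-HSC, WT MPP, cKO MPP). No difference can be drawn from these values for a gene whose promoter holds 2 CARE cores.

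Slc7a5, the light chain LAT1 that imports large neutral amino acids such as leucine, had 2 probes on mm9 chromosome 8 that lie 25860 bases apart and disagreed. The brighter (124430996 to 124431055) read 3272 (WT) and 1311 (cKO) in LT-HSC and 2218.5 (WT) and 1776 (cKO) in MPP. There the WT LT-HSC array stood highest and the genotype difference in LT-HSC was -1.24 ± 0.20. The other (124405136 to 124405195) read 1264, 1241, 1999.7 and 1589 in that order. Here the WT LT-HSC array was among the lowest, and the LT-HSC difference was 0.06 ± 0.20, so the lower value on the cKO LT-HSC array stands at 1 probe alone. In MPP the probes gave nearly the same difference, -0.29 and -0.30. LT-HSC minus MPP in WT was 0.30 at the brighter and -0.92 at the dimmer probe, and in cKO -0.65 and -0.56.

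**Figure D2:**
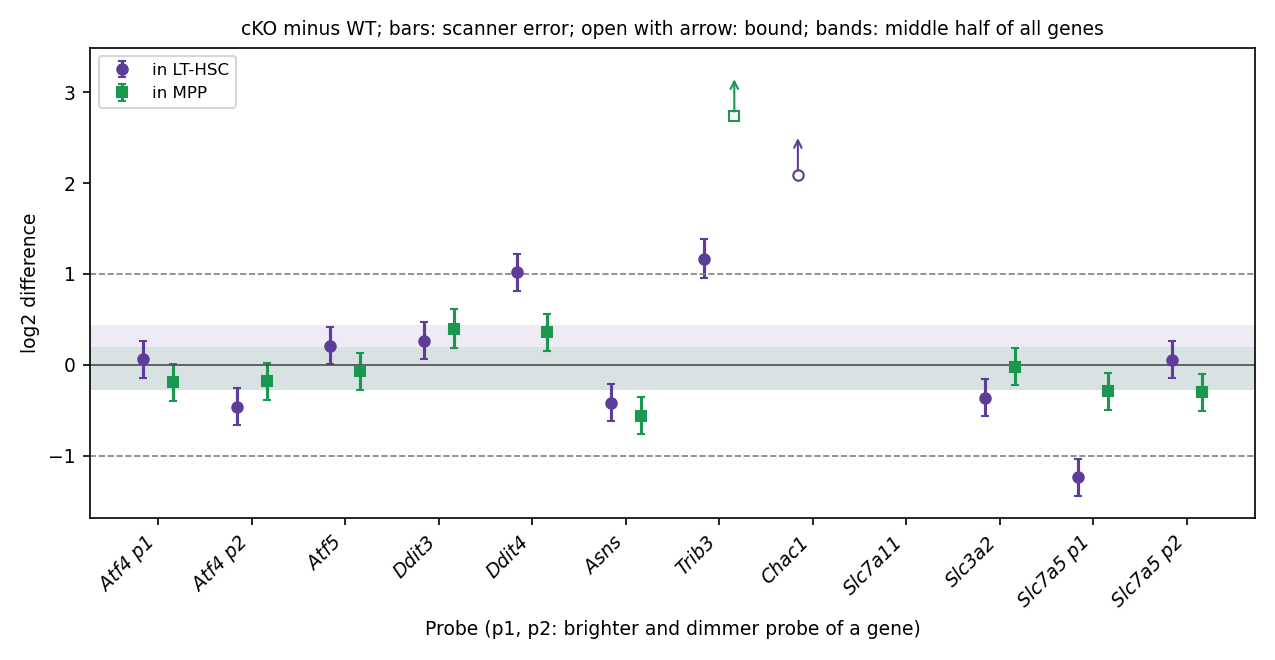
Difference of cKO from WT (log2, y axis) at each probe in LT-HSC (purple circles) and MPP (green squares). Bars are the scanner error, and open symbols with an arrow are bounds against a spot not well above background. The Trib3 symbol in MPP is set against the WT MPP spot's own signal and is not a strict lower limit. Bands are the interquartile range of all genes measured on both arrays, and dashed lines mark 2-fold. Trib3, Chac1 and Ddit4 lie highest, the brighter Slc7a5 probe lowest in LT-HSC (-1.24), and its other probe near 0.

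Counted per gene at the brighter probe, 8 of the 10 were measured (well above background on both arrays) in the comparison of genotypes in LT-HSC. Of these, 2 (Ddit4 and Trib3) were higher on the cKO array by 2-fold or more and 1 (Slc7a5) was lower, beside 8.98% higher and 7.9% lower of all 24111 genes measured. The median of the 8 was 0.13, against 0.10 over all genes. With bounds, Chac1 made 3 of 9 higher, beside 10.7% higher and 8.26% lower of all genes. A bound can only point to the array where the gene was well above background. Its direction is thus set by that flag, here and in the counts with bounds below, and is no separate result. In MPP 7 were measured and 0 passed 2-fold in either direction, where 1.76% of all genes were higher and 1.89% lower. Their median was -0.07 (all genes -0.06), and with bounds Trib3 made 1 of 8 higher, beside 2.43% higher and 2.65% lower of all genes. On the cKO LT-HSC array 7 of 9 B cell markers and 5 of 9 stromal markers were lower by 2-fold than on the WT one, with medians of -1.08 and -2.82, as were 3 of 7 erythroid markers (median -0.65), and their part in the LT-HSC differences was not tested. With so few members these counts are a description, and the WT LT-HSC array enters both the genotype comparison in LT-HSC and the population comparison in WT with opposite signs, so values that stand out in both are not separate observations.

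Between the populations, 7 members were measured in WT and 8 in cKO. Ddit3 was the 1 member higher in LT-HSC by 2-fold in each, and 0 were lower, beside 9.13% higher and 18.1% lower of all genes in WT and 6.68% higher and 6.43% lower in cKO. B cell markers were higher in LT-HSC by 2-fold in 6 of 6 measured in WT and 5 of 5 in cKO. Of 10 neutrophil markers, 6 were higher and 3 lower in WT, and 6 higher and 2 lower in cKO. Of 7 erythroid markers, 4 were higher and 0 lower in WT, and 2 higher and 1 lower in cKO. The part of any of these in the Ddit3 difference was not tested. The medians of the members were -0.14 in WT, which became 0.33 with quantile normalization, and -0.23 in cKO. With bounds, Trib3 in WT made 2 of 8 higher (all genes 10.7% higher and 19% lower) and Chac1 in cKO 2 of 9 (8.03% higher and 6.77% lower).

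**Figure D3:**
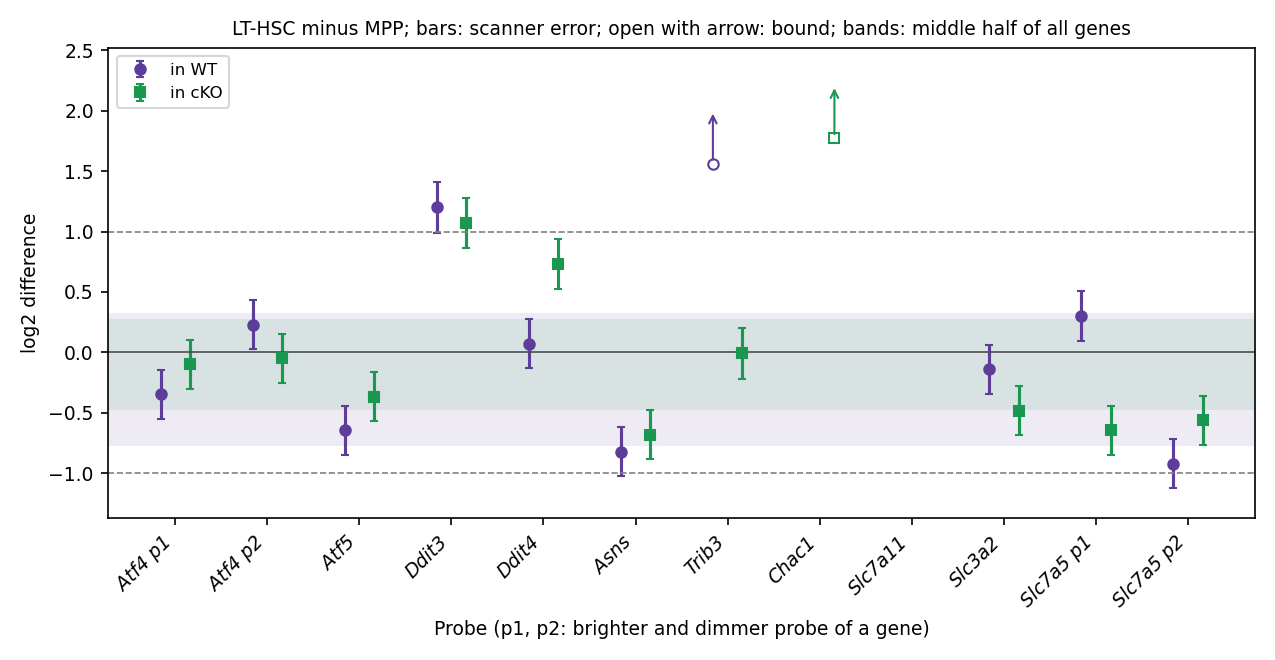
Difference of LT-HSC from MPP (log2, y axis) at each probe in WT (purple circles) and cKO (green squares), with the scanner error as bars, bounds as open symbols with an arrow, bands for the interquartile range of all genes and dashed lines at 2-fold. The Trib3 symbol in WT is set against the WT MPP spot's own signal and is not a strict lower limit. Ddit3 lies above 1 in both genotypes, and Asns at -0.82 and -0.68.

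The other genes of the pathway, taken from lists written with earlier results of these data known, are given beside these values. For the list counts that follow, the shares of all genes past 2-fold were these. On the cKO array 8.98% were higher and 7.9% lower in LT-HSC, and 1.76% and 1.89% in MPP. In LT-HSC against MPP, 9.13% were higher and 18.1% lower in WT, and 6.68% and 6.43% in cKO. Of the 23361 genes measured in that comparison in cKO, 13321 lay below 0. Of 34 other ATF4 targets, 27 were measured in WT and 14 of them were lower in LT-HSC than in MPP by 2-fold or more, with 0 higher and a median of -1.05 (all genes -0.20). Genes well above background on 1 of the 2 arrays added, as bounds, 3 higher (Cth, Aldh1l2 and Slc6a9) and 1 lower (Gdf15), and with bounds the median was -0.61. Shmt2 and Mthfd2, mitochondrial folate enzymes, stood at -1.93 and -2.58, and the arginyl-tRNA synthetase Rars, which is also in the next list, at -2.77. In cKO 31 were measured, 6 were lower by 2-fold and 0 higher, and 30 lay below 0 (median -0.56, all genes -0.09), led by the stress hormone Gdf15 (-2.50), the amino acid transporter Slc43a1 (-1.52) and the mitochondrial protease Lonp1 (-1.19). The cytosolic aminoacyl-tRNA synthetases, which charge tRNAs, showed the same side: 11 of 20 were lower by 2-fold in WT and 1 higher (median -1.14), with Farsb at -1.97 and Hars at -1.55 against Yars at 1.42 near background (62.6 against 19.6). In cKO 4 of 20 were lower, 20 of 20 lay below 0, and the median was -0.66, with Hars at -1.52, Eprs at -1.20 and Dars at -1.14. Under the 6 background corrections and scalings the median of the measured targets ran from -1.05 to -0.63 in WT and from -0.65 to -0.33 in cKO, and the synthetase median from -1.14 to -0.70 and from -0.75 to -0.50. The counts lower by 2-fold moved more, from 8 to 14 targets and 7 to 11 synthetases in WT, and from 1 to 6 and 1 to 5 in cKO. Markers of cycling cells moved to the same side, with 8 of 10 lower by 2-fold in LT-HSC in WT and 5 of 10 in cKO, and summed signals of 48.3 (WT LT-HSC), 59.5 (cKO LT-HSC), 103.7 (WT MPP) and 91.04 (cKO MPP); macrophage markers were also lower in LT-HSC, 5 of 9 in WT (median -1.08) and 7 of 10 in cKO (median -2.13). The part of either in these lists was not tested. Of the followed genes at their brighter probe, Asns, Atf5, Atf4 and Slc3a2 lay below 0 in both genotypes, with a sign that turned under other scalings for Atf4 in both and for Slc3a2 in WT, and Ddit3 and Ddit4 lay above 0 in both.

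Between the genotypes the same lists had no common side. Of the other ATF4 targets in LT-HSC, 4 of 30 were higher and 5 lower by 2-fold on the cKO array. Their median was 0.14 (from -0.06 to 0.17 over the scalings, all genes 0.10). Among the higher ones were Rars at 2.21, Mthfd2 at 1.87 and the tRNA exporter Xpot at 1.23. Among the lower ones were the glycine transporter Slc6a9 (-2.25), the folate enzyme Aldh1l2 (-1.89) and the glutamine transporter Slc1a5 (-1.18, other probe -0.43). Slc6a9 and Aldh1l2 were near background in cKO, at 24.2 and 19.8. In MPP 2 of 28 were higher, Gdf15 (1.22) and the mitochondrial enzyme Pck2 (1.06), and 0 lower. Of the synthetases 1 was higher (Rars) and 1 lower (Yars, -1.14, near background in cKO at 26.8) among 20 in LT-HSC, and 0 passed 2-fold in MPP.

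Upstream of Atf4, the list of eIF2 kinases, eIF2 subunits and phosphatase subunits had 13 genes measured in LT-HSC, of which 1 was higher and 2 lower by 2-fold on the cKO array. The lower ones were the haem-regulated kinase Eif2ak1 (-1.38 ± 0.20) and Ppp1r15a (-1.09 ± 0.21), which encodes GADD34, the stress-induced subunit that reverses eIF2 alpha phosphorylation. The higher one, the amino acid sensor Eif2ak4 (GCN2), was 3.22 at its brightest probe, but -3.45 and -0.60 at the others, so its probes give no direction. In MPP 0 of 12 passed 2-fold, with a median of -0.33. In WT, a comparison that shares the WT LT-HSC array, 3 of 13 were higher and 4 lower in LT-HSC than in MPP. The ER kinase Eif2ak3 (PERK) was higher in LT-HSC than in MPP by 1.28 ± 0.31 (near background in MPP at 21.5), Ppp1r15a by 1.08 and Eif2ak1 by 1.07. The eIF2 gamma subunit Eif2s3x was lower at -1.65 (other probe -2.07) and Eif2b5, a subunit of the eIF2 exchange factor, at -1.23. Eif2s1, which encodes eIF2 alpha, was at -1.03, and Eif2ak4 at -3.33 with another probe at 1.92. In cKO 0 of 12 measured on both arrays passed 2-fold, and Eif2ak3 was higher in LT-HSC as a bound. The summed signal of 7 erythroid markers was 71.66 (WT) and 34.55 (cKO) in LT-HSC and 21.53 (WT) and 23.85 (cKO) in MPP. Their part in the Eif2ak1 differences was not tested.

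Of 13 bZIP partners and regulators of ATF4, 1 was higher and 3 were lower by 2-fold on the cKO LT-HSC array, 1 was lower on the cKO MPP array, and 2 were higher and 2 lower in LT-HSC than in MPP in each genotype. Nupr1, a small stress-induced chromatin protein, had signals of 1161 (WT) and 389.9 (cKO) in LT-HSC and 54.5 (WT) and 40.2 (cKO) in MPP. It was thus higher in LT-HSC than in MPP by 4.15 ± 0.22 in WT and 3.07 ± 0.23 in cKO, and lower on the cKO than on the WT LT-HSC array (-1.49 ± 0.20); the B cell and stromal sums given above follow the same order for the LT-HSC arrays, and their part was not tested. Atf3, an early stress factor of the same family, was lower on the cKO LT-HSC array (-1.20) and higher in WT LT-HSC than in WT MPP (1.23). Btrc, a ubiquitin ligase subunit that acts on ATF4, was lower there at its brighter probe (-1.29) and higher at the other (1.49). The pseudokinase Trib2, a relative of Trib3, was higher on the cKO LT-HSC array (1.36, other probe 2.06), and Trib1 lower on the cKO MPP array (-1.07, with both other probes on the same side). Egln3, a prolyl hydroxylase that acts on ATF4, was lower in LT-HSC than in MPP (-3.66 in WT and -2.79 in cKO), as was Jdp2 (-1.97 and -1.39).

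The neighbouring pathways were split. Of 18 ER stress sensors and folding genes, 1 was higher in LT-HSC on the cKO array, the disulphide isomerase Pdia4 (1.41), and 0 lower, and 0 passed 2-fold in MPP. In WT, 3 were higher in LT-HSC than in MPP, among them the unfolded protein response factor Xbp1 (1.26) and the cochaperone Dnajb9 (1.26), and 6 were lower, led by the chaperone Hyou1 (-1.72). In cKO Xbp1 was again higher (1.13), among 2 higher and 0 lower. Syvn1, the remaining higher gene in both, had a probe of the opposite sign (-1.71 in WT and -0.73 in cKO). Of 20 measured genes of amino acid sensing and mTORC1, which REDD1 restrains, 5 were lower and 1 higher on the cKO LT-HSC array. Over all genes 7.9% were lower and 8.98% higher there. The lower ones were the mTORC1 inhibitors Tsc2 (-1.97), Nprl2 (-1.68) and Tsc1 (-1.17), Sesn3 (-1.05), and Wdr24 (-1.06), which is not an inhibitor. The higher one was the mTORC1 activator Rheb (1.09, other probe 1.01), and Rragb was higher as a bound. Over the 6 background corrections and scalings, 3 to 6 of the 20 were lower by 2-fold and 0 to 1 higher. In MPP 0 of 22 passed 2-fold. In WT, a comparison that shares the WT LT-HSC array, 4 of 21 were higher and 4 lower in LT-HSC than in MPP. The higher ones included the inhibitors Tsc2 (1.37) and Nprl2 (1.12). The lower ones were Rheb (-1.64), the inhibitor Akt1s1 (-1.62, near background in LT-HSC at 18.7), the mTORC1 substrate Eif4ebp1 (-1.06) and the kinase Mtor (-1.05). In cKO 0 of 21 passed 2-fold, and Akt1s1 was lower as a bound. NRF2 targets, a set that shares Slc7a11 with the ATF4 response, had 11 measured genes in each comparison. On the cKO LT-HSC array 3 were higher (Nqo1 by 3.20, near background in WT at 17.8, Slc48a1 by 1.83 and G6pdx by 1.62) and 1 was lower (Hmox1, -1.18). On the cKO MPP array Hmox1, which macrophages express strongly, was higher (1.48) and Srxn1 lower (-1.21). In WT, 6 were lower in LT-HSC than in MPP and 0 higher. In cKO 2 were lower, Hmox1 (-4.18) and Gclm (-1.09, near background at 14.5 against 26.8), and 0 higher.

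**Figure D4:**
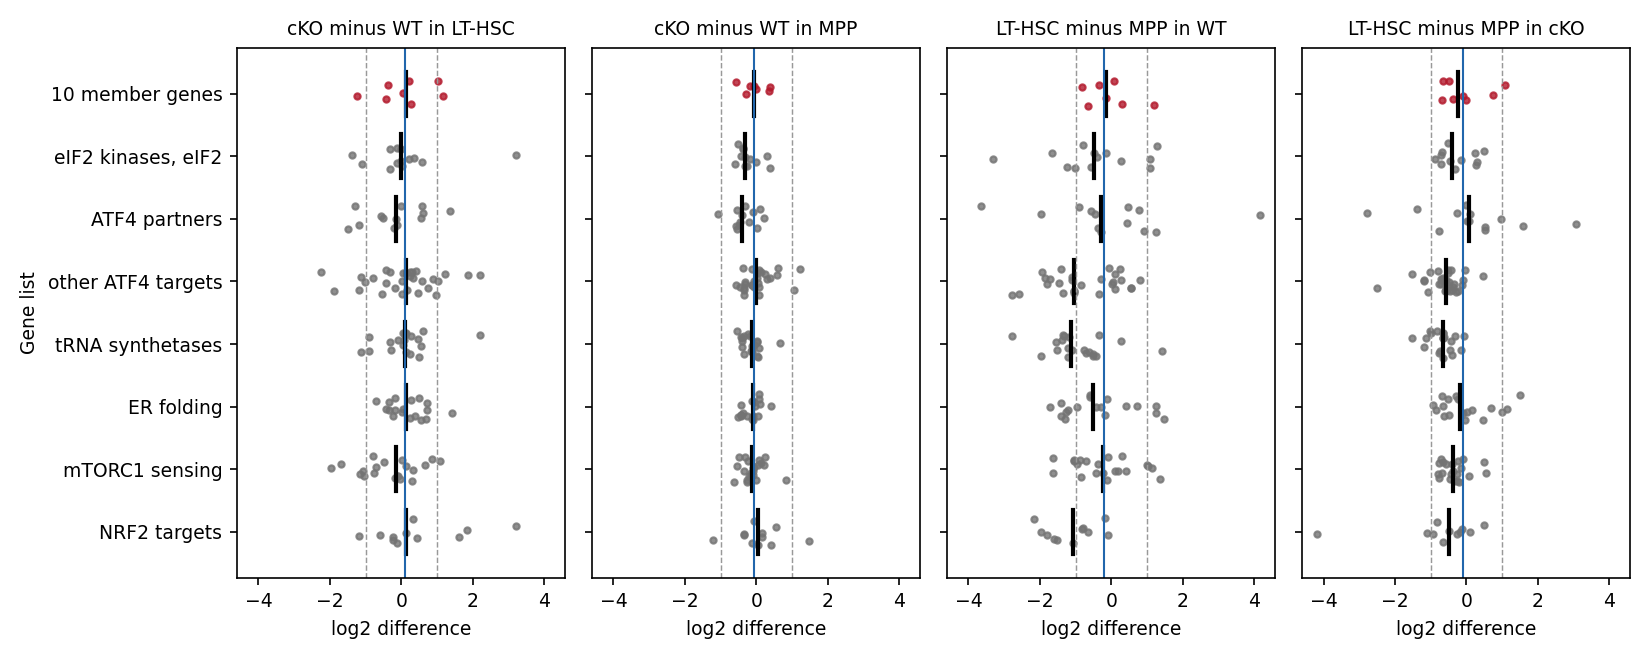
Log2 difference (x axis) of each measured gene of the 10 members (red) and of 7 lists of related genes (grey) in the 4 comparisons; black bars are list medians, the blue line is the median of all genes and dashed lines mark 2-fold. The medians of the other ATF4 targets and the tRNA synthetases lie left of the blue line where LT-HSC are compared with MPP (-1.05 and -1.14 in WT, -0.56 and -0.66 in cKO), while the 10 members spread to both sides.

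An additive model of genotype and population was fitted over all 25835 genes that passed the background flag on 2 arrays or more. It looks for a difference shared by both populations or by both genotypes, with 1 residual degree of freedom (limma, Benjamini-Hochberg adjustment at 0.05). As each group had 1 array, a gene's residual is the departure of its genotype difference in LT-HSC from that in MPP. The standard errors and p-values below come from such departures and do not measure variation between mice or between repeated samples. For genotype, 0 of the 8 members tested and 0 genes in all passed, with 1 member, Trib3, at an unadjusted p under 0.05, beside 3.62% of all genes. Trib3 was estimated at 1.96 ± 0.50 (SE; adjusted p = 0.974 from limma). The cKO array was the higher one in 2 of 2 populations, but the estimate includes the WT MPP value that was not well above background. For population 0 of the 8 and 0 genes in all passed, and Ddit3 alone had an unadjusted p under 0.05, beside 15.9% of all genes. Ddit3 was estimated at 1.13 ± 0.27 (SE; adjusted p = 0.275 from limma), and LT-HSC was higher in 2 of 2 genotypes. The fit has little power: in data simulated with the spread of these arrays, 0% of the genes given a shared difference of 1, 2, 3 or 4 (log2) passed the adjusted threshold for either term, so a count of 0 says nothing about differences of these sizes in few genes.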

How the data were processed

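Total RNA of 4 samples, 1 per group, was measured with Agilent mouse arrays of design 028005, with probe coordinates on mm9 per the file headers. The authors deposited spot intensity on a linear scale and, as score, flags of 0 or 1; per the file headers both come from Feature Extraction version 10.7.3.1 (9.5.3 in the submitters' processing notes), with background subtraction and detrending inside an array and no scaling between arrays. All arrays came from 1 slide and scan. The deposited series table gives a ratio of each signal to a level of its probe. Differences between its columns matched those of the processed signals to 0.01 (log2) at 99.998% of probes or more, apart from a constant for each array, and ran in the same direction; its medians were 91.9 (WT LT-HSC), 97.5 (cKO LT-HSC), 107.3 (WT MPP) and 102.4 (cKO MPP), and the rule of its centring is unknown.

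Control and outlier spots (137 to 151 per array) were left out, spots of a probe were averaged as log2, and each array's 75th percentile was subtracted. Other genes were named through the GRCm38.p6 table, used for names only (26762 probes by accession, 3819 by symbol, 639 by an older symbol, 24461 kept the file's name), and represented by their brightest probe well above background on at least 1 array. For a bound, the dim side was set to the lowest signal flagged well above background on that array, or to the probe's own signal where that was larger. In the latter case, as for Trib3, the value is not a strict lower limit. limma 3.58.1 in R 4.3.3 gave the additive fit, tested on simulated data, and the normexp correction (offset 50). At most the 3 largest differences past 2-fold per list and direction are named, apart from a few genes added to complete a count. The members, lists and tests were chosen with earlier results of these data known. Whether probes lie in exons or UTRs was not looked up. The number of arrays limits the precision.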

Additional observations from a re-analysis of the deposited data

Results flagged for a closer look

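The cKO minus WT difference had opposite signs in LT-HSC and MPP at 3 member probes, each resting on 1 array per group, and the difference between the populations was not tested. It was 0.25 ± 0.29 (scanner error) at the brighter Atf4 probe, 0.28 ± 0.29 for Atf5 and 0.36 ± 0.29 at the dimmer Slc7a5 probe. Over the 21520 genes well above background on all 4 arrays the same quantity had an interquartile range of -0.31 to 0.56, which holds all 3 values.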

How the results depend on the processing

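Of the 30 differences of members measured on both arrays, between 24 and 30 kept their sign under each alternative that gave all of them (28 of 28 with genes well above background on all 4 arrays). Of the 5 past 2-fold, 5 stayed past it with the 75th percentile over commonly detected probes, with quantile normalization, without a filter on dim probes, with bounds and in the authors' series table. With median scaling 2 did, and with normexp under either scaling 1 did. In LT-HSC the count higher on the cKO array (2) was 0 with median scaling and with normexp under either scaling, and 1 with genes detected on all 4 arrays; the count lower (1) was 0 when probes of a gene were averaged and with the dimmer Atf4 and Slc7a5 probes, an alternative chosen after seeing the data. With that choice the Slc7a5 difference in LT-HSC reversed to 0.056. In MPP the count higher (0) was 1 with bounds and without the filter. For LT-HSC against MPP in WT, the count higher (1) was 0 with normexp under either scaling and 2 with bounds and without the filter, the count lower (0) was 1 without the filter, and the median (-0.14) was 0.33 with quantile normalization and 0.29 with normexp and quantile normalization. In cKO the count higher (1) was 0 with median scaling and with normexp under either scaling, and 2 with bounds and without the filter. The cause was not tested, other than that the filter and the bounds change which genes are counted. The additive fit called 0 members under all 6 alternatives of each term, with lowest adjusted p-values from limma between 0.917 and 0.994 for genotype and 0.201 and 0.368 for population; with an unadjusted p under 0.05, 0 to 2 members were found. Over all genes it called 0 for population, but 101 with the 75th percentile over commonly detected probes, 57 with normexp and quantile normalization and 68 with genes detected on all 4 arrays. Of all genes past 2-fold, the share higher moved from 53.2% to 38.3% in LT-HSC with median scaling, and with normexp and quantile normalization from 48.3% to 63.9% in MPP, from 33.5% to 46.8% for populations in WT and from 51.0% to 65.9% in cKO. Median scaling moved the median of all genes from 0.10 to -0.10 in LT-HSC. The labels give no replicate numbers and each group had 1 array, so no replicate block was fitted; the additive fit compares the genotypes with population as a term. Signals not flagged well above background limit Slc7a11 on all arrays, Chac1 on 3 and Trib3 on the WT MPP array.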
